A study of Homo sapiens with 8 samples.

Results

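The proteins of the mitochondrial ribosome are encoded by nuclear genes whose symbols begin with MRPL (large subunit) or MRPS (small subunit). All rows of the deposited expression table with MRPL or MRPS followed by a number were taken, which gave 78 of 17056 genes, 49 MRPL and 29 MRPS. The libraries come from A549, an established human lung adenocarcinoma line, with 2 libraries in each of 4 groups. The OE libraries are from cells overexpressing the long non-coding RNA AFAP1-AS1, and the ASO libraries from cells in which AFAP1-AS1 was knocked down. The ASONC libraries are the negative control of the knockdown, and the vector libraries the control of the overexpression. The cell line is shared by all groups, and the labels do not state separate cultures for the replicates. The p-values therefore describe the spread of these libraries alone, and that spread may be technical. Each comparison asks whether gain or loss of AFAP1-AS1, or the kind of control, went with a different level of the mitoribosomal transcripts.

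The mitochondrial ribosome translates the few membrane proteins of the respiratory chain that mitochondrial DNA encodes. Its RNAs come from mitochondrial DNA, while every one of its proteins is made in the cytosol and imported, so that both subunits are assembled from products of both genomes. Family names do not follow the structure throughout. In the mammalian ribosome the products of MRPS30 and MRPS18A sit in the large subunit, that of MRPS36 belongs to the 2-oxoglutarate dehydrogenase complex and not to the ribosome, and that of MRPL58 is a peptidyl-tRNA hydrolase built into the large subunit. MRPS18A, MRPS18B and MRPS18C are paralogues.

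The 8 libraries held between 33155584 and 36953674 reads, recovered from the deposited FPKM values (reads scaled to the length of the gene model and to the depth of the library). Members took 0.474% to 0.570% of the reads of a library. Of 5 epithelial markers, the keratins KRT8 and KRT18 were high, at 1093 to 1317 and 981 to 1307 FPKM. The other three were low, with KRT19 at 1.51 to 4.92, the adhesion gene CDH1 at 0.841 to 4.42 and EPCAM at 0.386 to 0.862 FPKM. NQO1, a gene of the antioxidant response that is high in A549, ran from 575 to 761 FPKM. The alveolar markers SFTPC, SFTPB and NKX2-1 did not exceed 0.332 FPKM, the leukocyte marker PTPRC did not exceed 0.00429, and the macrophage marker CD68 ran from 48.9 to 90.1. AFAP1-AS1 itself was not analysed here. The ASONC libraries stood apart in that 1435 and 1341 genes were at 0, against 2205 to 2327 in the other 6 libraries. The FPKM values of a library summed to between 421591 and 437924 in the ASO and ASONC libraries, and to between 371927 and 379733 in the OE and vector libraries. The labels name no batch, so a batch and the group cannot be told apart. In a bulk library a change in every cell and a change in a share of the cells cannot be told apart either.

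Promoter sequence was available for 69 of the 78 genes (RefSeq, GRCh38.p14, 250 bases before to 50 after the start), and 5 stretches are shown for the recognition motif of ETS factors and for members that differ in how they moved. The factor GABP, made of GABPA and GABPB1 and known as a regulator of nuclear genes for mitochondrial proteins, is of this family. The motif CCGGAAG, on either strand, was in 29 of the 69 windows (42.0%), against 21.0% of the 8702 windows of tested genes and 10.7% of all 27305. The motif AAGATGGCG of YY1 was in 13 (18.8%), against 4.56% and 1.85%. That of NRF1 (GCGC, any base, then TGCGC) was in 8 (11.6%), against 12.7% and 6.29%, and GGGCGG, bound by SP1, in 42 (60.9%), against 72.4% and 44.6%. At least one of the first 3 was in 27 of 42 MRPL and 16 of 27 MRPS windows. Each line below gives the 100 bases before the start, 5′ to 3′ on the strand of the gene, with matches to the ETS motif in capitals. MRPL33 is at chr2:27771619-27771718 (plus strand), MRPL20 at chr1:1407294-1407393 (minus), MRPS31 at chr13:40771191-40771290 (minus), MRPS10 at chr6:42217862-42217961 (minus) and MRPS30 at chr5:44808847-44808946 (plus).
MRPL33: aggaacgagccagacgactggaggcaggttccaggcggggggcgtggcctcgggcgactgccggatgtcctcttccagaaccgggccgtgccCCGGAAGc
MRPL20: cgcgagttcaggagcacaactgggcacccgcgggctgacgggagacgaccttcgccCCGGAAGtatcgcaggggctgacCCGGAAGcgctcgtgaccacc
MRPS31: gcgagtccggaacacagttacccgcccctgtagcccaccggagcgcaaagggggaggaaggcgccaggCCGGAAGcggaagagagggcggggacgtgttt
MRPS10: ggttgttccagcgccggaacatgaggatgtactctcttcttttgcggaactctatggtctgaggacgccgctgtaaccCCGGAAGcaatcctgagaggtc
MRPS30: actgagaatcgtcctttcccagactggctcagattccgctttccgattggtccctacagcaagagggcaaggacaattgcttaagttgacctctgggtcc
In ASONC against vector, MRPL33 and MRPL20 were higher, MRPS10 lower and MRPS31 close to 0 change, and all 4 carry the letters of the ETS motif within the 100 bases shown. MRPS30, which was lower, has none of the first 3 motifs in the stretch shown. These stretches were chosen after the values were seen, and a match is a description of letters, not a binding site.

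Members were expressed at unequal levels per length. Averaged over the 8 libraries, the 77 members above 1 FPKM ran from 3.32 FPKM for MRPL42 to 191 FPKM for MRPL12, with a median of 36.7. The MRPL median was 42.7 FPKM and the tested MRPS median 28.5. MRPL12, whose product forms the flexible stalk that recruits translation factors, had 162 and 169.9 FPKM in OE, 215 and 208 in ASO, 214 and 237 in ASONC, and 164 and 162 in vector libraries. Below it stood MRPL51, MRPL33, MRPL24 and MRPL53 among large subunit genes, with mean levels down to 115 FPKM. Among small subunit genes the highest were MRPS34, MRPS7, MRPS12, which encodes a decoding centre protein, MRPS26 and MRPS15. MRPL42 had the lowest FPKM of the tested members with 1588 to 2216 reads per library, and its counted gene model is 15848 bases long, against a median of 1541 bases over all members. MRPS24 was the single member under the 1 FPKM filter. It had 1 and 0 reads in OE, 2 and 5 in ASO, 0 and 0 in ASONC, and 0 and 1 in vector libraries, and shares 606 exonic bases with the readthrough gene URGCP-MRPS24 on the same strand. How shared reads were counted is not given, and its part in this level was not tested.

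Summed FPKM of MRPL genes over that of MRPS genes was 2.05 and 2.05 in OE, 2.23 and 2.24 in ASO, 2.23 and 2.27 in ASONC, and 2.06 and 2.06 in vector libraries. Both ASO and both ASONC libraries lay above all 4 OE and vector libraries. The median gene model was 1387 bases for MRPL and 1673 for tested MRPS genes, and the median GC content 51.5% and 47.1%. Fold changes of ASONC against vector moved with length and with GC content (below), and their part in this ratio was not tested. OE minus vector was -0.013, ASO minus ASONC -0.016 and ASONC minus vector 0.19. With 2 libraries against 2 an exact two-sided permutation test cannot go below 0.333, so this test cannot reach 0.05. It gave 0.333 for OE against vector, 0.667 for ASO against ASONC and 0.333 for ASONC against vector. Placing MRPS30 and MRPS18A with the large subunit and leaving MRPS36 out gave 2.28 and 2.28 in OE, 2.42 and 2.43 in ASO, 2.43 and 2.47 in ASONC, and 2.29 and 2.29 in vector libraries, the same order.

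**Figure D1:**
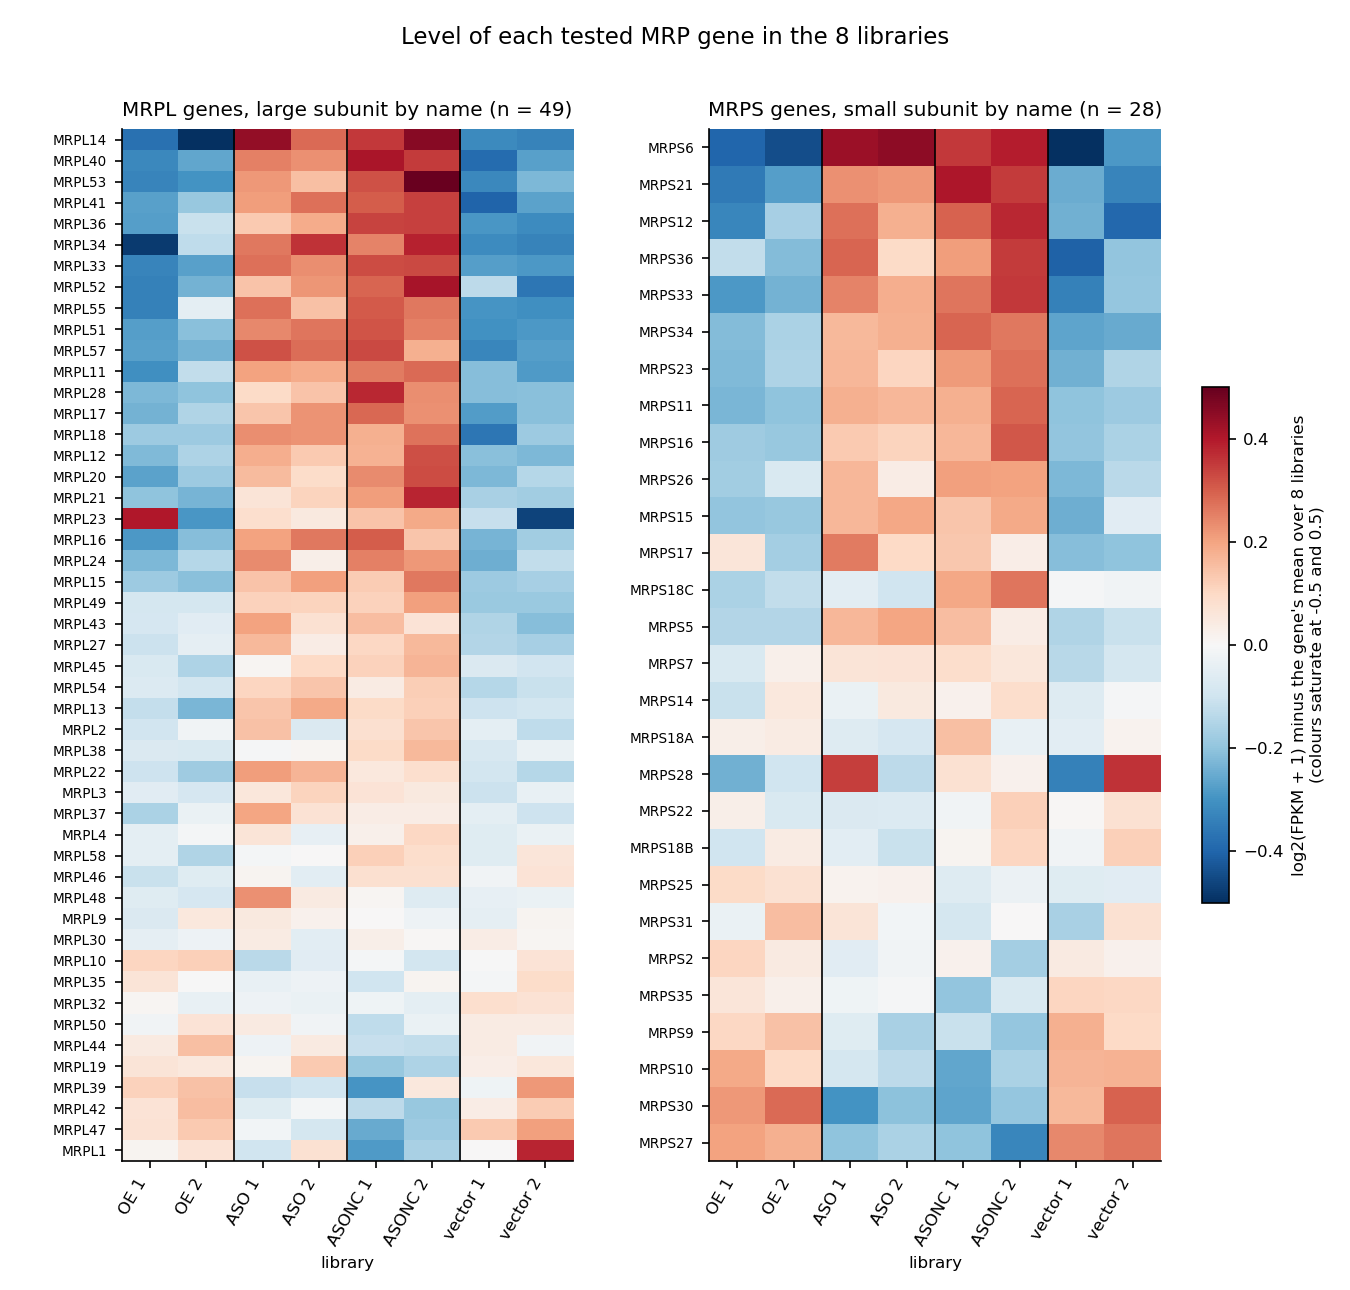
Each row is an MRP gene above the filter and each column a library. Colour is log2(FPKM + 1) minus the mean of the gene over the 8 libraries, with genes ordered by ASONC against vector. Most rows of both families are red in ASO and ASONC and blue in OE and vector libraries, and the lowest rows, which hold MRPS27, MRPS30 and MRPL47, run the other way. Under TPM scaling the calls of ASONC against vector are 32 higher and 24 lower, and 31.7% of the calls over all genes are higher.

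Overexpression of AFAP1-AS1 left no mitoribosomal gene past the threshold. The threshold was an adjusted p (Benjamini-Hochberg, limma) under 0.05 across the 10648 genes whose mean reached 1 FPKM. None of the 77 tested members passed in OE against vector (0 of 77, against 0.0657% of all genes tested), 5 had an unadjusted p below 0.05 (6.93% of all genes did), and voom on recovered reads also called 0. Their median log2 fold change on the log2(FPKM + 1) scale was 0.002, that of all genes 0.002, and the members ran from -0.18 to 0.34. MRPL23 stood at the upper end, with 12.6 and 7.43 FPKM in OE and 8.52 and 6.49 in vector libraries, so that the groups overlap (0.34 ± 0.17, limma adjusted p = 0.742). MRPS28 stood at the lower end, with 4.43 and 4.98 in OE and 4.07 and 7.22 in vector libraries, which also overlap. The smallest p belonged to MRPS25, a small subunit protein gene, with 10.98 and 10.83 FPKM in OE and 9.76 and 9.79 in vector libraries (0.14 ± 0.06, limma adjusted p = 0.62). Its exons share 1197 bases with NR2C2 on the opposite strand, and whether the counting used strand is not given. MRPS18C (-0.13 ± 0.05) and MRPL32 (-0.09 ± 0.04) came next and did not pass. The libraries of the 2 groups did not overlap for 14 members that were higher and 13 that were lower in OE, and such separation in either direction held for 35.1% of all genes.

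Knockdown of AFAP1-AS1 went with small changes of 10 of the 77 members relative to its own control. In ASO against ASONC 2 members rose and 8 fell, against 11.3% of all genes tested higher and 10.9% lower (22.2% in either direction). The median of the members was -0.03 and that of all genes 0.02. That median was 0.01 with TPM scaling and 0.04 after a correction for gene length and GC content. The split of the calls was 5 higher and 3 lower under TPM scaling, 5 and 4 under median-of-ratios scaling, and 7 and 2 after the length and GC correction. The calls over all genes shifted too. Of these, 51% were higher as deposited, 67% under TPM scaling, 62% under median-of-ratios scaling and 53% after the length and GC correction. The large subunit had 2 higher and 6 lower of 49, the small subunit 0 and 2 of 28. The ASO and ASONC libraries did not overlap for 17 members that were higher and 29 that were lower in ASO, where 34.4% and 28.1% of all genes did not overlap (62.5% in either direction).

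MRPS18C, a small subunit gene, fell most in ASO against ASONC. It had 17.8 and 17.2 FPKM in ASO and 21.3 and 22.5 in ASONC libraries, a log2 fold change of -0.31 ± 0.05 (SE; limma adjusted p = 0.00175). The groups do not overlap, and the call held in each of 19 alternative settings. The vector libraries had 18.4 and 18.3, between the ASO and ASONC values. MRPS18C shares 1956 exonic bases with ABRAXAS1 on the opposite strand, which averaged 2.64 FPKM, was at -0.05 ± 0.11 and did not pass. The paralogues MRPS18B (-0.14 ± 0.06) and MRPS18A (-0.13 ± 0.06) did not pass.

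MRPL53, a large subunit gene, had 131 and 125 FPKM in ASO and 141 and 159 in ASONC libraries (-0.22 ± 0.06, limma adjusted p = 0.0151), with 89.9 and 96.2 in vector libraries. It shares 608 exonic bases with CCDC142 on the same strand, which was at -0.20 ± 0.08 and did not pass. The call was lost without ASO replicate 2 and without ASONC replicate 2, and after the length and GC correction. MRPL21 fell by 0.21, MRPL28 by 0.18, MRPL36 by 0.18, MRPL20 by 0.16, MRPS21 by 0.15 and MRPL38 by 0.13, all with limma adjusted p-values between 0.0196 and 0.0454. Except for MRPS18C and MRPL19, each of the 10 calls was lost with at least 5 of 19 alternatives. MRPL20 and MRPL38 were named after their values were seen, to complete the list of calls.

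MRPL19, a large subunit gene at the interface, was higher with 13.0 and 14.2 FPKM in ASO against 11.2 and 11.5 in ASONC libraries (0.24 ± 0.06, limma adjusted p = 0.0124). The vector libraries had 13.2 and 13.5, so that the ASO libraries lay at the level of the vector control. The call was lost without ASO replicate 2, without ASONC replicate 1 and after the length and GC correction. MRPL47, which sits near the exit of the peptide tunnel, had 24.5 and 23.2 FPKM in ASO and 20.6 and 21.7 in ASONC libraries (0.17 ± 0.05, limma adjusted p = 0.0432), with 27.2 and 28.6 in vector libraries.

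**Figure D2:**
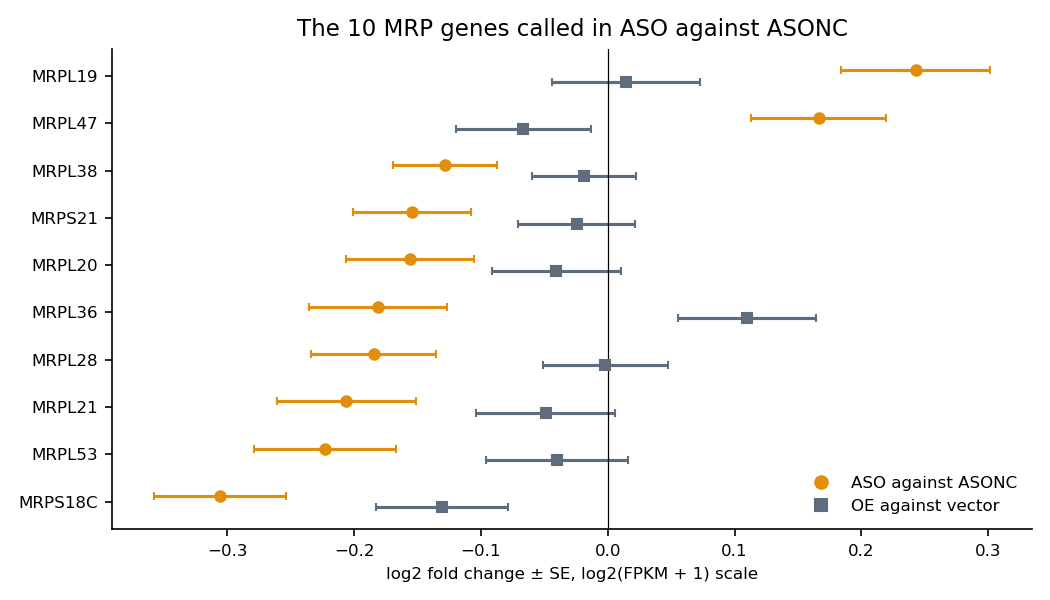
The 10 members called in ASO against ASONC are listed with the log2 fold change and its SE, and OE against vector is drawn for the same genes. Under ASO, 8 lie below 0 and 2 above, and none of the 10 was called with OE. With TPM scaling the calls of ASO against ASONC are 5 higher and 3 lower, and 66.8% of the calls over all genes are higher.

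The difference between the overexpression effect and the knockdown effect passed for 2 of 77 members, both higher, against 6.19% of all genes higher and 4.02% lower (10.2% in either direction). TPM scaling gave 0 higher and 2 lower, median-of-ratios scaling 0 and 1, and the length and GC correction 1 and 1. Of the calls over all genes, 41.9%, 48.1% and 61.1% were higher in these settings, against 60.6% as deposited. For MRPL36, a small zinc-binding protein gene of the large subunit, it was 0.29 ± 0.08 (limma adjusted p = 0.0342). MRPL36 had 31.2 and 35.1 FPKM in OE, 41.7 and 43.4 in ASO, 48.3 and 48.4 in ASONC, and 30.8 and 30.3 in vector libraries. For MRPS34, a small subunit gene, it was 0.18 ± 0.05 (limma adjusted p = 0.0481), with 106 and 110.3 FPKM in OE, 138 and 139 in ASO, 151 and 148 in ASONC, and 102 and 103 in vector libraries. As deposited, both genes were higher in every ASO and ASONC library than in any OE or vector library, and in ASONC against vector MRPS34 was at -0.20 after the length and GC correction. Neither was called in OE against vector, and MRPS34 was not called in ASO against ASONC (limma adjusted p = 0.0541). The call for MRPL36 held in 6 of 18 alternatives and that for MRPS34 in 3, and the value for MRPS34 was -0.097 after the length and GC correction.

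The control groups differed from each other in most members, as they did in most genes tested. In ASONC against vector 47 members rose and 11 fell, against 36.8% of all genes higher and 31.8% lower (68.6% in either direction). The large subunit had 32 higher and 6 lower of 49 (median 0.29), the small subunit 15 and 5 of 28 (median 0.21), and the median of all genes was 0.04. The ASONC and vector libraries did not overlap for 52 members that were higher and 14 that were lower in ASONC, where 45.4% and 39.4% of all genes did not overlap (84.7% in either direction). With the subunits set by structure the medians were 0.23 and 0.23. The size of the median and the split of the calls depend on the scaling. Of the 58 members called, 7 had the other sign under TPM scaling. TPM scaling gave 32 higher and 24 lower members with a median of 0.02. The median of all genes was then -0.16, and 31.7% of the calls over all genes were higher. Relative to all genes the median of the members was 0.19 as deposited, 0.18 for TPM, 0.18 for median-of-ratios scaling and 0.07 after the length and GC correction. That correction left 27 members higher and 22 lower, and 48.7% of the calls over all genes were higher.

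Genes of both subunits were among the largest rises. MRPS6 (chromosome 21, 34073224 to 34143034), the partner of MRPS18C on the small subunit platform, had 30.4 and 31.3 FPKM in ASONC and 16.4 and 19.2 in vector libraries (0.77 ± 0.06, limma adjusted p = 7.48e-07). The ASO libraries had 32.0 and 32.6 and the OE libraries 17.7 and 17.1, so that ASO and ASONC values lay together above both others. The exonic bases that MRPS6 shares with SLC5A3 and AP000317.2 on the same strand sum to 567. SLC5A3 was at -0.68 ± 0.09 in ASONC against vector. After the length and GC correction MRPS6 was at 0.87 ± 0.06.

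MRPL14 (chromosome 6, 44113454 to 44127457), at the interface between the subunits, had 37.1 and 39.9 FPKM in ASONC and 22.9 and 22.7 in vector libraries (0.73 ± 0.06, limma adjusted p = 1.15e-06). After the length and GC correction it was at 0.10 ± 0.07 and did not pass (limma adjusted p = 0.199). MRPL40 (chromosome 22, 19431902 to 19436075) had 54.8 and 52.6 FPKM in ASONC and 31.2 and 33.8 in vector libraries (0.71 ± 0.05, limma adjusted p = 1.71e-07), and 0.29 ± 0.05 after that correction. MRPL33, with one of the promoters shown, had 169.5 and 170.3 FPKM in ASONC and 112 and 110.5 in vector libraries (0.61 ± 0.04, limma adjusted p = 5.14e-08), and 0.45 ± 0.04 after the correction. In all 3 the groups were far apart in FPKM, and the correction changed them unequally.

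MRPL53 (0.68 ± 0.06) and MRPS21 (0.67 ± 0.05) completed the 5 largest rises, and MRPS21 has 8 annotated pseudogenes. MRPL41, a large subunit gene whose product has also been tied to apoptosis, was at 0.66 ± 0.05 and MRPS12 at 0.65 ± 0.06. MRPL45, whose product holds the ribosome to the inner membrane, was at 0.23 ± 0.05. After the length and GC correction MRPS12 stayed higher at 0.15 ± 0.06 (limma adjusted p = 0.0425), MRPL41 was at -0.06 and MRPL45 at -0.05. MRPL12, the gene with the highest level, was at 0.47 ± 0.05 as deposited and at -0.29 ± 0.04 after the correction, so its direction depends on that correction.

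A smaller group of members fell in ASONC against vector. MRPS27 (chromosome 5, 72219409 to 72320646) encodes an RNA-binding pentatricopeptide repeat protein of the small subunit. It had 47.0 and 43.1 FPKM in ASONC and 64.3 and 65.6 in vector libraries (-0.52 ± 0.05, limma adjusted p = 1.49e-06), and the ASO libraries had 47.0 and 48.6. MRPS30 (chromosome 5, 44808925 to 44820428), in the large subunit despite its name, had 24.5 and 25.8 FPKM in ASONC and 33.2 and 36.5 in vector libraries (-0.46 ± 0.06, limma adjusted p = 2.41e-05). For both genes ASO and ASONC libraries lay below all OE and vector libraries. MRPS27 was at -0.36 ± 0.04 after the length and GC correction, and MRPS30 at -0.07 ± 0.06, where it did not pass.

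MRPL47 had 20.6 and 21.7 FPKM in ASONC and 27.2 and 28.6 in vector libraries (-0.39 ± 0.05, limma adjusted p = 4.46e-05), and -0.46 ± 0.05 after the correction. MRPS10, with an ETS motif in the promoter shown, had 23.9 and 25.7 FPKM in ASONC and 32.6 and 32.7 in vector libraries (-0.38 ± 0.05, limma adjusted p = 4.24e-05), and -0.41 ± 0.05 after the correction. MRPL1, of the stalk that moves used tRNA out of the ribosome, had 10.4 and 11.4 FPKM in ASONC and 13.0 and 17.1 in vector libraries (-0.42 ± 0.10, limma adjusted p = 0.00374). MRPS9 was at -0.29 ± 0.05. MRPL47, MRPS10, MRPS9, MRPL1 and MRPS27 were still called lower after the correction for length and GC content.

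**Figure D3:**
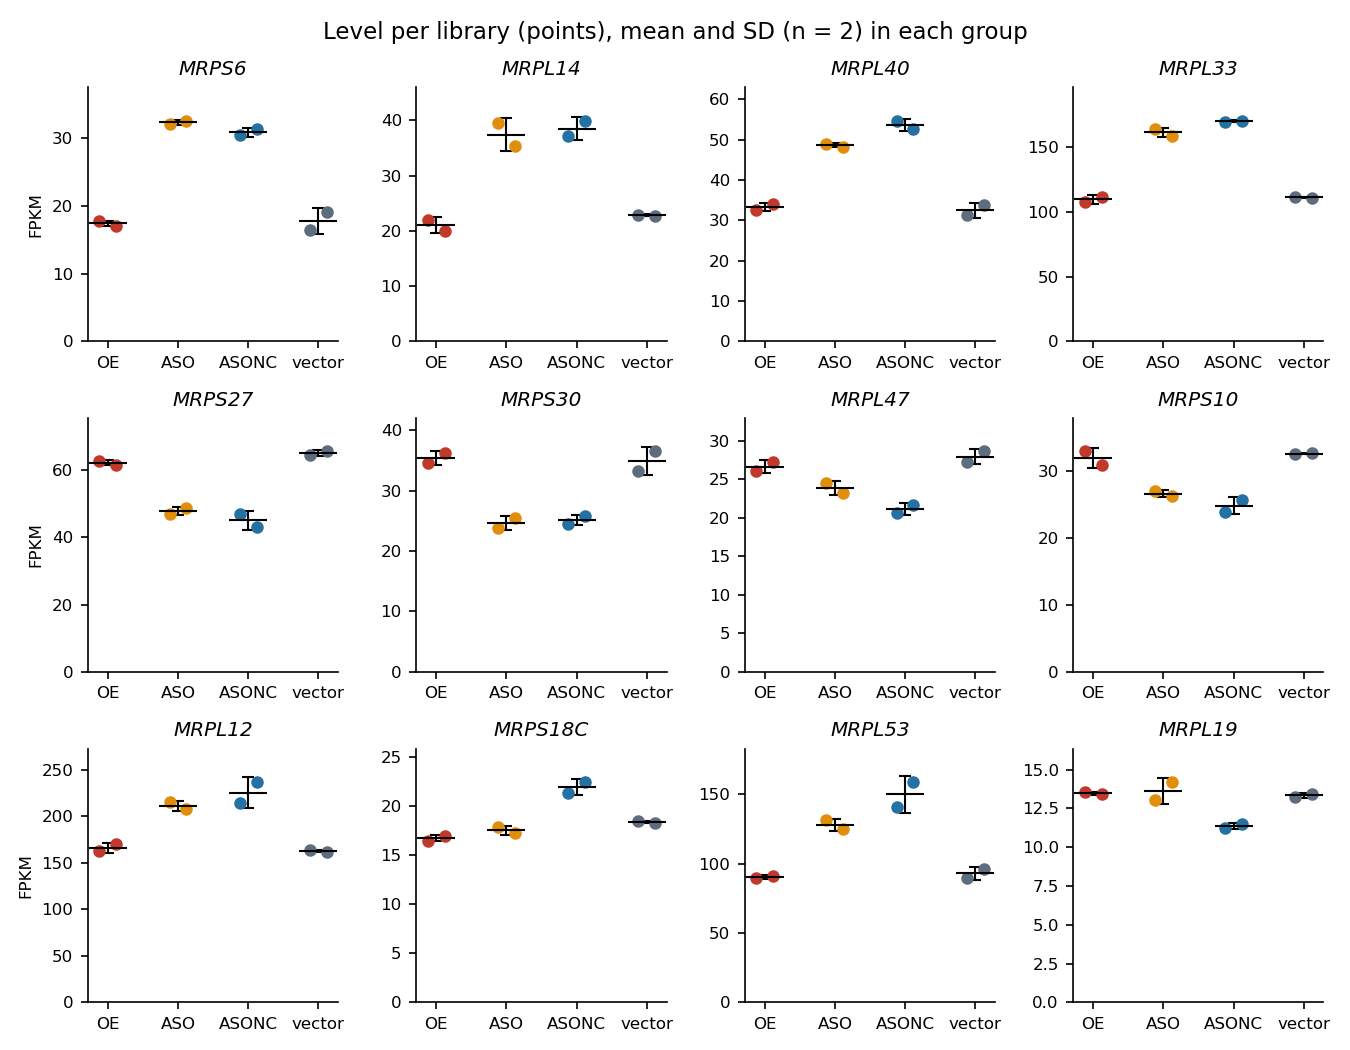
FPKM of 12 members in the 4 groups, with points for libraries and a bar with whiskers for the mean and SD of 2. MRPS6, MRPL14, MRPL40 and MRPL33 are higher and MRPS27, MRPS30, MRPL47 and MRPS10 lower in ASO and ASONC than in OE and vector libraries; MRPL12 has that shape too, but was at -0.29 in ASONC against vector after the length and GC correction.

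Against the same vector libraries, the ASO libraries had 45 members higher and 8 lower, against 34.1% and 28.8% of all genes (62.9% in either direction), with a median of 0.26 where all genes had 0.03. The ASO and vector libraries did not overlap for 49 members that were higher and 16 that were lower in ASO, where 44.0% and 38.1% of all genes did not overlap (82.1% in either direction). This comparison shares its vector libraries with the one before it, so they are not independent. TPM scaling gave 34 higher and 24 lower, and the length and GC correction 26 and 19. Of the calls over all genes, 31.9% and 51.0% were higher in these settings. The 5 largest rises were in MRPS6 (0.83 ± 0.06), MRPL14 (0.69 ± 0.06), MRPL34 (0.64 ± 0.09), MRPL57 (0.60 ± 0.06) and MRPL41 (0.58 ± 0.05). The 5 largest falls were in MRPS30 (-0.48 ± 0.06), MRPS27 (-0.43 ± 0.05), MRPS10 (-0.28 ± 0.05), MRPS9 (-0.25 ± 0.05) and MRPL47 (-0.22 ± 0.05). MRPS36, of the 2-oxoglutarate dehydrogenase complex, was at 0.49 ± 0.08 in ASO and 0.58 ± 0.08 in ASONC against vector. MRPL58, the hydrolase gene, was at -0.0049 in ASO and 0.10 in ASONC against vector and passed in neither.

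**Figure D4:**
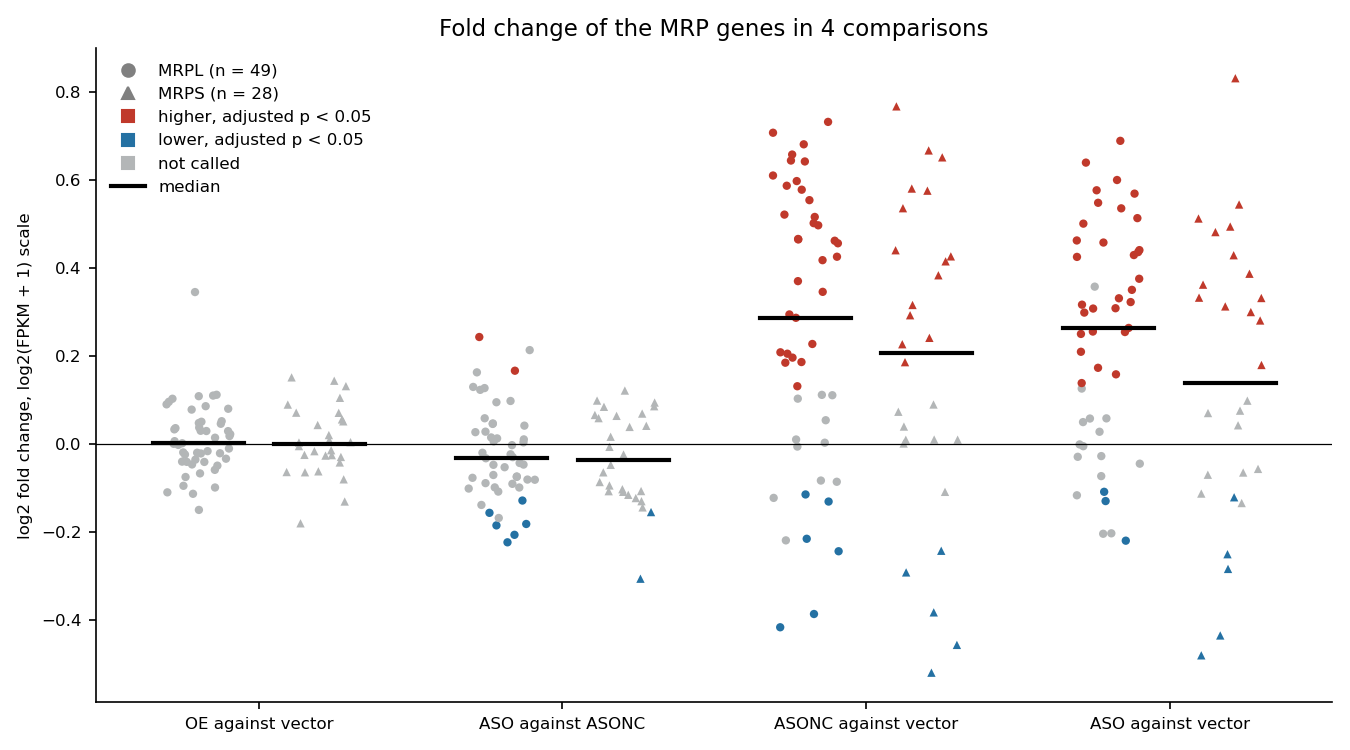
Log2 fold change of each tested member, MRPL as circles and MRPS as triangles, in 4 comparisons. Colour marks the limma call and the bar the median; no point is coloured in OE against vector, and the points spread from -0.52 to 0.77 in ASONC against vector. With TPM scaling ASONC against vector has 32 higher and 24 lower, and ASO against vector 34 and 24. Of the calls over all genes, 31.7% and 31.9% are then higher.

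Gene length and GC content moved with the fold changes of ASONC against vector. The members' gene models, read from the FPKM step of a single read, had a median of 1541 bases against 3940 for all tested genes, and their GC content a median of 49.2%, the same as for all tested genes. Across the 77 members, which share the 4 libraries compared, the Spearman correlation of the fold change was -0.38 with the length of these models and 0.51 with GC content. Across all tested genes it was -0.52 and 0.54. The length and GC correction used the exon length in GENCODE instead. With that length the correlation was -0.28 across members and -0.47 across all tested genes. The GENCODE length was far above the counted one for MRPS6 (4299 against 948 bases), MRPS30 (6202 against 1678) and MRPL33 (1539 against 517). It was far below for MRPL39 (1199 against 3316). What this does to the corrected values of single genes was not tested. Of the 26 members with the shortest gene models (505 to 1226 bases) 20 were higher and 2 lower, with a median of 0.44. Of the 26 in the middle 14 were higher and 4 lower (0.16), and of the 25 longest 13 and 5 (0.18). Over all genes tested, 36.8% were called higher and 31.8% lower (68.6% in either direction). For ASO against ASONC the correlation with GC content was -0.48, against -0.46 across all tested genes.

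**Figure D5:**
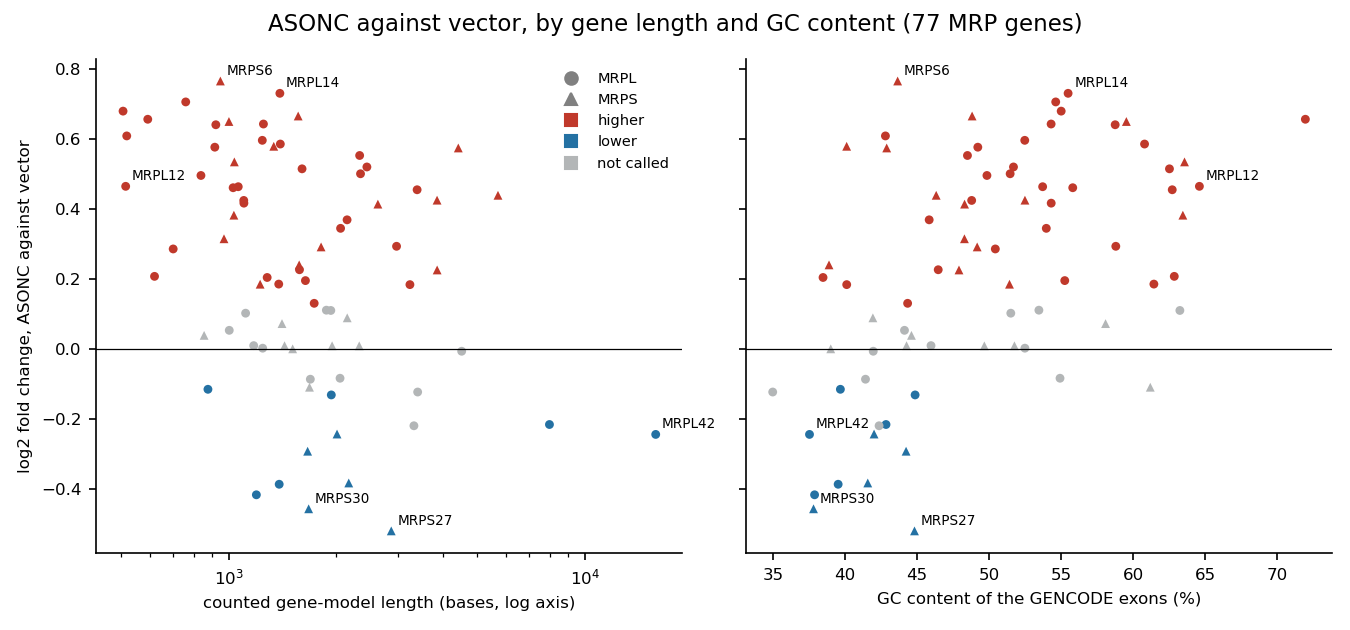
Log2 fold change of ASONC against vector for the 77 tested members, by the length of the counted gene model and by GC content of the exons, with colours for the limma call. Shorter and GC-richer members lie higher (Spearman -0.38 and 0.51 across members); MRPL42, at 15848 bases, is the longest and lies at -0.24, and at 0.41 after the length and GC correction.

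Many members overlap other genes. Of the 78, 29 share exonic bases with a gene on the opposite strand, 16 with a gene on the same strand, and 34 have annotated pseudogenes. The 20 tested members with none of these had 15 higher and 2 lower in ASONC against vector (68.6% of all genes called), as deposited. They had 15 and 2 in ASO against vector (62.9% of all genes), and 0 and 2 in ASO against ASONC (22.2%).

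Members often stand head to head with another gene. In GENCODE release 29, 29 of the 78 (37.2%) have a protein-coding gene on the opposite strand that starts within 1000 bases of their own start. Starts on either side were counted, so some pairs overlap. The share was 18.6% of tested protein-coding genes. In 26 such pairs with both genes tested, ASONC against vector called both in the same direction in 5 and in opposite directions in 7. It called the member alone in 8, the partner alone in 4 and neither in 2, where 68.6% of all genes tested were called. Whether pairs differ from other genes was not tested. MRPL47 and NDUFB5, a subunit gene of respiratory complex I, start 36 bases apart, and were at -0.39 ± 0.05 and 0.42 ± 0.08. MRPL36 and NDUFS6, also of complex I, start 34 bases apart and were at 0.64 ± 0.05 and 0.46 ± 0.06, the second at -0.06 after the length and GC correction. MRPS11 and MRPL46, both members, start 34 bases apart and were at 0.43 ± 0.05 and 0.05 ± 0.05, where MRPL46 did not pass. MRPS27 and PTCD2, an RNA-processing gene, start 279 bases apart and were at -0.52 ± 0.05 and -0.67 ± 0.09. They share 190 exonic bases on opposite strands, and whether the counting used strand is not given. These 4 pairs were chosen after their values were seen.

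Other genes of mitochondrial translation were taken from lists chosen with earlier results of these data known. Of 5 further proteins of the mitoribosome, 3 rose and 1 fell in ASONC against vector (68.6% of all genes called), and 0 rose and 1 fell in ASO against ASONC (22.2%). CHCHD1, of the small subunit, had 48.5 and 50.1 FPKM in ASONC and 29.3 and 33.1 in vector libraries (0.65 ± 0.07). PTCD3, an RNA-binding protein of the small subunit, ran the other way with 11.6 and 10.4 FPKM in ASONC and 17.4 and 18.7 in vector libraries (-0.67 ± 0.07). AURKAIP1 was at 0.58 ± 0.06 and GADD45GIP1 at 0.47 ± 0.06, and both were below 0 after the length and GC correction. DAP3, a GTP-binding small subunit protein, was at -0.05 and did not pass.

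Of 32 assembly and rRNA modification genes, 8 rose and 8 fell in ASONC against vector, with a median of 0.04, and 1 rose and 1 fell in ASO against ASONC. Over all genes tested, the shares were 36.8% higher and 31.8% lower in ASONC against vector (68.6% in either direction) and 11.3% and 10.9% in ASO against ASONC (22.2%), and the counts of this and the next lists are to be read against them. MPV17L2, needed for ribosome assembly, had 11.8 and 11.8 FPKM in ASONC and 5.28 and 4.83 in vector libraries (1.08 ± 0.07). FASTKD2, which binds mitochondrial rRNA, had 6.79 and 6.46 in ASONC and 10.99 and 11.69 in vector libraries (-0.69 ± 0.06). Of 17 translation factors 5 rose and 4 fell, and the lower ones included MTIF2, the initiation factor (-0.73 ± 0.07), and GFM1, an elongation factor (-0.55 ± 0.05). In ASO against ASONC 0 of these factors were called, and 3 had an unadjusted limma p below 0.05, as did 35.5% of all genes tested. Of 17 mitochondrial aminoacyl-tRNA synthetases 2 rose and 2 fell, with IARS2 at -0.35 ± 0.05. Of 20 tested genes of mitochondrial transcription and RNA processing 5 rose and 9 fell. LRPPRC, which stabilises mitochondrial mRNAs, had 39.6 and 36.4 FPKM in ASONC and 82.7 and 82.9 in vector libraries (-1.10 ± 0.05).

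Among 8 tested regulators of mitochondrial gene sets, 1 rose and 5 fell in ASONC against vector, where 36.8% of all genes were higher and 31.8% lower (68.6% in either direction). GABPA, the DNA-binding part of GABP, had 2.82 and 2.60 FPKM in ASONC and 5.24 and 5.27 in vector libraries (-0.76 ± 0.07, limma adjusted p = 2.19e-06). The ASO libraries had 3.78 and 3.76 FPKM, higher than ASONC by 0.36 ± 0.07. YY1 was at -0.27 ± 0.05 and NRF1 at 0.03, where it did not pass. The cytosolic ribosomal proteins had 75 of 80 tested genes higher and 0 lower in ASONC against vector (median 0.49), and 0 higher and 48 lower in ASO against ASONC, where 11.3% of all genes were higher and 10.9% lower. The nuclear-encoded respiratory chain subunits, the partners of what the mitoribosome makes, had 70 of 76 higher and 1 lower (median 0.54), and 1 higher and 11 lower in ASO against ASONC. Beside these, the MRP genes had 47 of 77 higher and 11 lower, and 2 higher and 8 lower, as deposited. Whether the lists differ from each other was not tested.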

How the data were processed

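RNA-seq libraries of A549 cells, 2 in each of 4 groups, were analysed from the table of FPKM values that the authors deposited. HISAT2, featureCounts, HTSeq and R (3.2.0) are named, without roles, in the submitters' processing notes, as is hg38 (GRCh38). Neither the gene annotation nor strand use is given. Each FPKM value is a whole multiple of what 1 read is worth, and whole reads (tolerance 0.02) were recovered for 17054 of 17056 genes, which gave depth and the implied gene length. Chi-square over degrees of freedom between the replicates ran from 5.27 to 6.20, above sampling noise, so each was kept as its own sample.

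Tests used limma 3.58.1 in R 4.3.3 (two-sided, mean-dependent trend) on log2(FPKM + 1), all 4 groups in one fit, over the 10648 genes whose mean reached 1 FPKM, with Benjamini-Hochberg adjustment over all of them. Fold changes on this scale understate low genes, and ± is the SE. Gene positions, length and GC content came from GENCODE release 29 (GRCh38), promoters from RefSeq (GRCh38.p14). The fit was tested on simulated data. The alternatives were other pseudocounts (0.1 and 0.5), dropping the filter or raising it to 5 FPKM, scaling to TPM or by median of ratios, only the libraries compared, a replicate block, a correction for length and GC content, both together, voom on recovered reads, and leaving out each library. FPKM divides by the library total, so a large change in some genes shifts others.

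The members and the lists were chosen with earlier results of these data known. Named members were the 5 largest called rises and falls of each comparison (or all calls and the 3 smallest p), the highest and lowest levels, and genes fixed for their place or role. Others are marked as named after their values were seen. One further result is not reported here.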

Additional observations from a re-analysis of the deposited data

Results flagged for a closer look

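The overexpression effect and the knockdown effect differed, among the results given here and by a test of the difference itself (limma, adjusted over all genes tested), for 2 of 77 mitoribosomal genes and for 2 companion genes. Of all genes tested, 10.2% were called by this test. The difference was 0.29 for MRPL36 (limma adjusted p = 0.0342) and 0.18 for MRPS34 (limma adjusted p = 0.0481). It was -0.45 for GABPA (limma adjusted p = 0.018) and -0.24 for LRPPRC (limma adjusted p = 0.0384). These calls held in 6, 3, 10 and 8 alternative settings, in the order given, of 17 for GABPA and 18 for the other genes. After the length and GC correction the difference for MRPS34 was -0.097. Groups of 2 libraries were too small to look for libraries far from the others of their group.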

How the results depend on the processing

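With 2 libraries a group and 4 groups in the fit, changes of members in ASO against ASONC lay close to the threshold. The count of members called there was 10, where 22.2% of all genes tested were called. With no filter on low genes it was 3, where 13.3% of all genes were called. The count was also lower when an ASO or an ASONC library was left out, and so was the share of all genes called. In these fits the single library left is assumed to vary like the other groups. The median of the members in that comparison was -0.03 as deposited, 0.010 under TPM scaling, -0.0052 under median-of-ratios scaling, 0.036 with the length and GC correction, and -0.059 to -0.0075 with a library left out. In ASONC against vector it was 0.23, and 0.015, 0.17 and 0.063 with those 3 settings, and 0.20 to 0.25 with a library left out. In ASO against vector it was 0.26, and 0.083, 0.22 and 0.074, and 0.22 to 0.30. In OE against vector it ran from -0.015 to 0.032. The difference of the effects was called for 2 members, and for 0 with no filter, 1 with median-of-ratios scaling and 1 with a replicate block. Of all genes, 10.2%, 4.66%, 10.9% and 10.1% were called in these settings, in that order. The cause was not tested.

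Over all members called, 7 had the other sign under TPM scaling in ASONC against vector and 2 in ASO against vector. The length and GC correction gave the other sign for 13, for 6 and, in the difference of the effects, for 1, and the other alternatives without that correction for 0. Some of these could not change a sign. A replicate block, another filter and the use of only the libraries compared leave each fold change as it was. Among the genes followed by name, in ASONC against vector the correction gave -0.29 for MRPL12, -0.34 for MRPS26, -0.20 for MRPS34, -0.19 for MRPL38, -0.062 for MRPL41, -0.054 for MRPL45, -0.036 for MRPL24, -0.0096 for MRPS7, 0.075 for MRPL32, 0.41 for MRPL42, -0.062 for AURKAIP1, -0.099 for GADD45GIP1, -0.046 for HSD17B10, -0.069 for TACO1 and -0.056 for NDUFS6. In ASO against vector it gave -0.13 for MRPL12, -0.21 for MRPS26, -0.070 for MRPS34, -0.092 for MRPL45, -0.13 for GADD45GIP1, -0.0093 for HSD17B10 and -0.12 for TACO1. For the difference of the effects it gave -0.097 for MRPS34. TPM scaling gave -0.032 for MRPS7 and -0.031 for MRPL38 in ASONC against vector, and -0.036 for MRPL45 and -0.025 for TACO1 in ASO against vector.

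The replicate numbers of the groups do not pair the libraries: deviations of libraries with the same number correlated between -0.061 and 0.062. A replicate block called 10 members in ASO against ASONC (10 without it), 59 in ASONC against vector, 56 in ASO against vector and 0 in OE against vector, and the block with the length and GC correction gave the same medians and reversals as that correction alone.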
